A study of Mus musculus with 6 samples.

Results

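Non-collagen matrix and matricellular genes of stroma, 39 in all, were followed between 2 sorted fractions of the mouse uterus. They were taken by symbol from the count table of 26586 genes, and all 39 were found and had enough counts to be tested. They comprise 7 small leucine-rich proteoglycans, 2 other proteoglycans, 5 fibulins, 7 elastic fibre and microfibril proteins, 4 latent TGF-beta binding proteins, 3 crosslinking oxidases, 9 adhesive and matricellular proteins and 2 nidogens. The libraries came from 3 Axin2rtTA; tetOH2BJGFP mice, in which the Axin2 promoter drives a doxycycline-dependent activator of a nuclear H2B-GFP reporter. Ovaries were removed at 4 weeks of age, doxycycline followed after a rest of 2 weeks, and the uterus was taken another 4 days on, when mice were 6 weeks old. Cells of an endometrial epithelial isolate were sorted into a GFP-positive fraction, labelled Axin2+, and a GFP-negative fraction, labelled Axin2-, with 3 libraries of ribosomal RNA-depleted total RNA per fraction. Both fractions carry the transgenes, had the same surgery and received doxycycline, and intact or untreated mice were not analysed here. Mouse numbers are given in the labels, which also speak of pooled cells, so if a pool was used the p-values measure only the spread between its libraries.

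The stroma of the uterus lies beneath the epithelium and is built from fibroblasts that secrete collagen together with the proteins described here. Small leucine-rich proteoglycans coat collagen fibrils and set their diameter and spacing. Fibrillins form microfibrils onto which elastin is laid with the help of fibulins and lysyl oxidases, while latent TGF-beta binding proteins store the growth factor in that scaffold. Matricellular proteins such as the thrombospondins, SPARC, periostin and tenascin C act mainly on how cells adhere and signal. Nidogens belong to the basement membrane, where they link the laminin and collagen networks. Epithelial cells make little of most of these proteins and rest on the basement membrane that separates them from the stroma.

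The libraries held 49714402 to 59597315 counts each. These totals include ribosomal RNA, with 31876744 counts for Rn45s, 16325625 for Rnr2 and 6594067 for Rnr1 over the 6 libraries together. Levels are given as CPM, counts brought to a common library total with TMM factors, and CPM of different genes are not comparable because genes differ in length. Axin2, whose promoter drives the reporter, stood at 356 to 369 CPM in the libraries labelled Axin2- and at 165 to 299 CPM in those labelled Axin2+. Its log2 fold change of -0.61 ± 0.21 (SE) had an edgeR adjusted p of 0.0710, while DESeq2 called Axin2 lower with all libraries (adjusted p = 0.0337). Omitting the mouse 3 library labelled Axin2+ gave -0.82 (edgeR adjusted p = 0.0290). Since the transcript runs against the labels, every direction below is given for the libraries as labelled. Epithelial markers were higher in those labelled Axin2+ for 12 of 12 genes, with a summed level of 2370 to 3408 CPM against 189 to 292 CPM. Stromal fibroblast markers were lower there for 8 of 12, with a summed level of 2238 to 3327 CPM against 5736 to 18775 CPM, and Dpep1 was at 0 in 2 of the libraries labelled Axin2+. Smooth muscle and pericyte markers were lower for 9 of 11, with 246 to 385 CPM against 2348 to 6355 CPM. Macrophage markers were higher for 7 of 8, with 624 to 3510.4 CPM against 58.5 to 337 CPM. Endothelial markers were higher for 4 of 7 (196 to 281 against 173 to 218 CPM), and of 5 mesothelial markers 4 were higher and 1 lower (543 to 934 against 214 to 252 CPM). All 12 epithelial markers were detected in every library, Foxa2 with 1 to 15 reads in those labelled Axin2-.

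Most of the 39 stromal matrix genes fell in the libraries labelled Axin2+. The proteoglycan gene Aspn, the fibrillin gene Fbn2, the thrombospondin gene Thbs2 and the periostin gene Postn moved furthest, with log2 fold changes of -4.87, -3.94, -3.12 and -3.05. Without the mouse 1 library labelled Axin2- these were -3.49, -3.18, -2.17 and -1.62, and for Postn the groups overlapped. In an edgeR quasi-likelihood test with Benjamini-Hochberg adjustment over 16896 genes, 30 of the 39 fell and 0 rose at a threshold of 0.05. Of all genes tested 12.8% fell and 14.5% rose. At an unadjusted p under 0.05 in edgeR 1 member was higher, Fn1, which was also the 1 that DESeq2 called. The median log2 fold change of the 39 was -1.81, against -0.01 over all genes tested. In 30 of 39 the 3 libraries labelled Axin2+ all lay below the 3 labelled Axin2-, as they did for 23.2% of all genes, and 33 of 39 were lower in every mouse (31.1% of all genes). Per mouse the median was -2.23, -1.67 and -1.26 in mice 1, 2 and 3. In mice 1, 2 and 3 the 39 genes together summed to 18576, 16228 and 13611 CPM in the fraction labelled Axin2-. In that labelled Axin2+ they summed to 9912, 8257 and 7189 CPM, of which Fn1 alone held 5650.5, 4394 and 2098 CPM. Fn1 held 2233, 1652 and 2170.4 CPM in the fraction labelled Axin2-, so the sums understate the fall of the other genes together. The order of mice in the sums labelled Axin2+ also rests on Fn1, since mouse 3 was the highest there for 20 of 39 members. Stromal and muscle markers were lower, and epithelial, macrophage, mesothelial and some endothelial markers higher, in the same libraries, and their part in the result was not tested. In bulk libraries fewer cells of a type and less RNA per cell cannot be told apart.

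The 9 genes that did not pass were Fmod, Ogn, Vcan, Eln, Ltbp2, Ltbp3, Loxl1, Fn1 and Tnc, and they were of different kinds. Vcan, Eln, Tnc and Loxl1 had log2 fold changes of -2.01 to -0.99 with a wide spread between mice, whereas Fmod, Ltbp2 and Ltbp3 lay between -0.10 and 0.21. Of the 30 that fell, 17 passed in all 14 other settings tried, and 13 were lost when at least 1 library was left out. The matching shares over all called genes were not counted, so these 2 counts do not show whether members are more or less stable than other genes. Leaving out the mouse 2 library labelled Axin2+ left 17 calls of lower level, when 6.04% of all genes were called lower. Without the libraries labelled Axin2- of mice 1, 2 or 3 in turn 23, 27 and 23 members fell (7.35%, 10.3% and 7.54% of all genes), and without those labelled Axin2+ of mouse 1 or 3 it was 27 and 23 (11% and 10.4%). Library-size scaling gave 27 (9.31%), and DESeq2 called 32 lower (15.6%) and 1 higher (16.2%). With the mouse as a block 26 fell, 24 of them among the 30, when 11.1% of all genes fell.

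**Figure D1:**
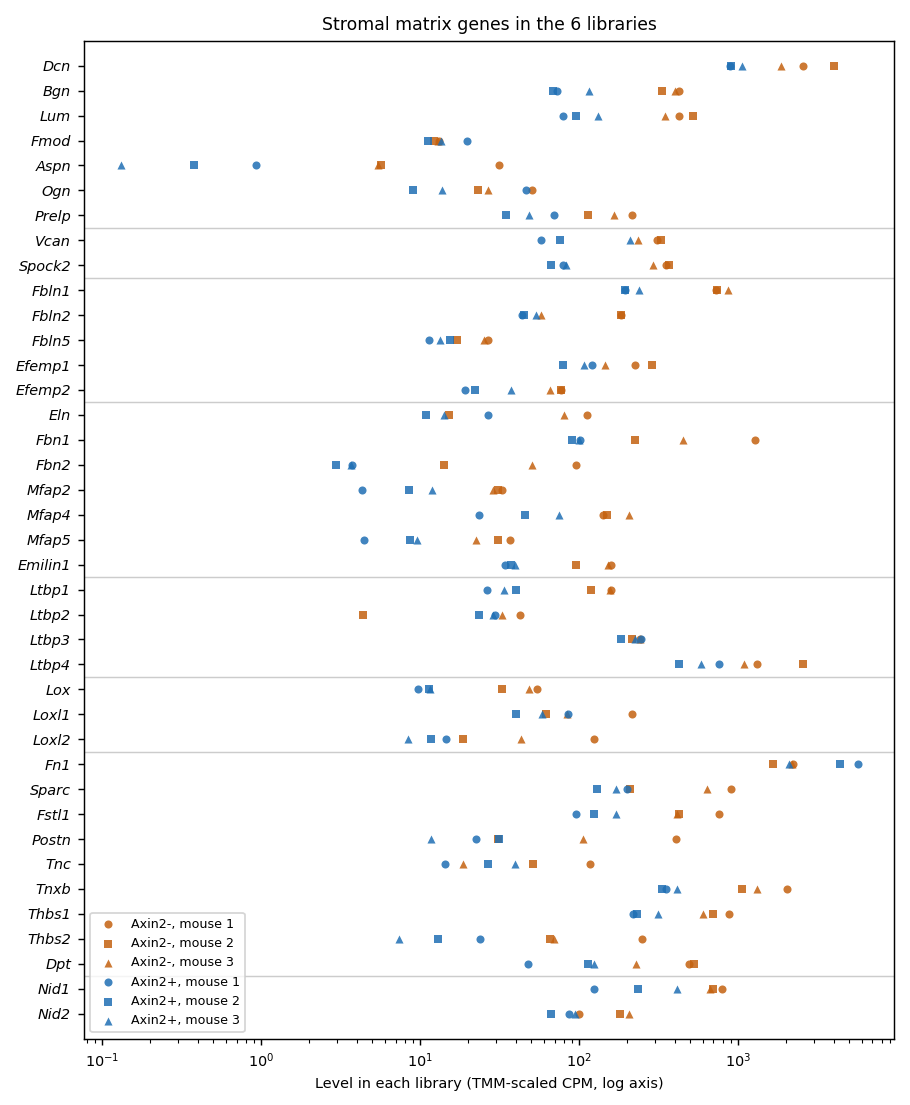
Level of each of the 39 matrix genes in the 6 libraries as TMM-scaled CPM on a log axis, with 1 symbol per mouse and 1 colour per fraction, and grey lines between groups of related proteins. For 30 of 39 genes the 3 libraries labelled Axin2+ lie left of the 3 labelled Axin2-.

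**Figure D2:**
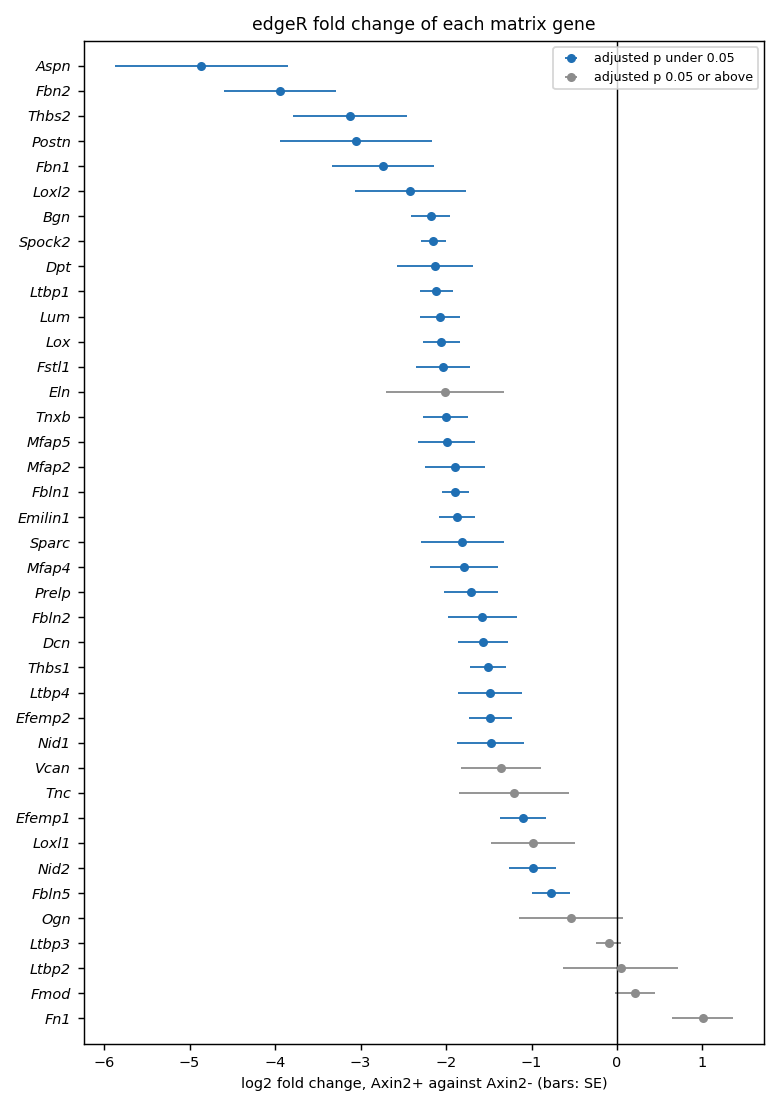
Log2 fold change of each matrix gene between the libraries labelled Axin2+ and Axin2- from edgeR, with bars of 1 SE on either side, ordered by size. The 30 genes in blue passed the adjusted threshold, all to the left of 0, and Fn1 lies furthest to the right.

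Promoters are shown for 4 of the 30 genes that fell, chosen for a large fold change or a small error. RefSeq promoter windows of GRCm38.p6, from 250 bases before to 50 after the start, were matched for 27 of the 39 genes. The stretch from 150 bases before to 30 after the start is printed on the gene's strand for Postn and Thbs2, which had large fold changes, and for Spock2 and Fbln1, which had the smallest p-values of the group. Postn and Thbs2 were not chosen by rank, since Aspn had a larger fold change and a window that is not printed. Capitals mark TATAAA on the printed strand and CAGAC, the core that SMAD proteins bind, on either strand, where it reads GTCTG on the other.
Postn, chr3:54360957-54361136, plus strand: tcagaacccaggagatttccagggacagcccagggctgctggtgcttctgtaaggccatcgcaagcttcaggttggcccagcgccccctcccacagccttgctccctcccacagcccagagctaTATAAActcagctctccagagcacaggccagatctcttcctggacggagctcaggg
Thbs2, chr17:14694233-14694412, minus strand: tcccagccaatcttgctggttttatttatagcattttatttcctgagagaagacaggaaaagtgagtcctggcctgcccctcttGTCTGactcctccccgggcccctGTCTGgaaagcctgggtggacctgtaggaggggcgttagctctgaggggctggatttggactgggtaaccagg
Spock2, chr10:60106107-60106286, plus strand: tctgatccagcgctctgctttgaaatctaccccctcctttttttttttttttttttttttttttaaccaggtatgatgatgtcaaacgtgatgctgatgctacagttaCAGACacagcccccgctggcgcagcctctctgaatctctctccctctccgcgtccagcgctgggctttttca
Fbln1, chr15:85205799-85205978, plus strand: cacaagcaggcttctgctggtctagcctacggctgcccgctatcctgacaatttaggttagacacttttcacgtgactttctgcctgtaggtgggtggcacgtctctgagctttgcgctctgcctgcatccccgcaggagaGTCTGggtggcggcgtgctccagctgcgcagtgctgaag
Of these 4 stretches only that of Postn held TATAAA on the printed strand, and it began 26 bases before the start. Where a gene had windows at different starts, as Postn did, a window holding TATAAA was printed in preference to others. The match in Postn is therefore partly a product of that choice, and its other starts are not shown.

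Across the whole 300-base windows and both strands, TATAAA was present in 6 of 27 members (Aspn, Ogn, Postn, Tnc, Thbs2 and Dpt), or 22.2%, against 15.7% of 27025 genes. The GC box GGGCGG was present in 51.9% against 38.2%, and CAGAC in 63% against 53.2%. The E box CANNTG, which overlaps other motifs freely, was found in 85.2% against 75%. GGAATG, which TEAD factors bind, was found in 11.1% against 16.6%, TGANTCA, which AP-1 binds, in 11.1% against 8.97%, GATAA in 22.2% against 28.4% and CCCNNGGG, an EBF motif, in 11.1% against 15.4%. The CArG box of SRF was in 0 of 27 windows and in 1.81% of all genes. The GC content of the windows had a median of 55.3% in members, from 31% for Aspn to 75.3% for Ltbp4, and 52.8% over all genes. These are matches of letters in a short window and not shown to be binding sites.

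Of the small leucine-rich proteoglycans 5 of 7 fell, with a median log2 fold change of -1.71. Decorin (Dcn, chromosome 10, 97479609 to 97518143, plus strand, mm10), which binds collagen fibrils and carries a chondroitin or dermatan sulfate chain, stood at 2559, 4045 and 1860.0 CPM in mice 1, 2 and 3 in the fraction labelled Axin2-, and all values below keep that order of mice. The fraction labelled Axin2+ held 891, 907 and 1061 CPM. The groups did not overlap, mouse 2 was the highest of the first group, and the level was 2.96-fold lower (log2 fold change -1.57 ± 0.29 SE, edgeR adjusted p = 0.00870). Lumican (Lum), a keratan sulfate proteoglycan that lies near Dcn on chromosome 10 (97565128 to 97572703), stood at 424, 519 and 347 CPM against 79.1, 95.7 and 132 CPM. It fell 4.20-fold (adjusted p = 0.00130), and mouse 2 was again highest in the first group. Biglycan (Bgn), a close relative of decorin on chromosome X, stood at 426, 334 and 399.7 CPM against 72.5, 68.5 and 115 CPM, a log2 fold change of -2.18 ± 0.23 (SE, edgeR adjusted p = 0.000950). Prelp, which anchors basement membrane to the collagen below, fell from 165 ± 51.2 to 50.7 ± 17.3 CPM (mean ± SD over n = 3 libraries per fraction, as below), or 3.26-fold.

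Asporin (Aspn) had the largest fold change of the 39. It stood at 31.3, 5.64 and 5.42 CPM in the libraries labelled Axin2- and at 0.932, 0.378 and 0.130 CPM in those labelled Axin2+. The groups did not overlap, but mouse 1 held most of the signal in both. Its log2 fold change of -4.87 ± 1.01 (SE, edgeR adjusted p = 0.0131) was -3.49 without the mouse 1 library labelled Axin2- and -5.78 without the mouse 1 library labelled Axin2+. It did not pass without the mouse 2 library labelled Axin2+ (-4.71, adjusted p = 0.0561). Ogn, which encodes osteoglycin, did not pass, with 50.2, 23.0 and 26.7 CPM against 46.0, 8.97 and 13.7 CPM. Mouse 1 was high in both fractions, and without its library labelled Axin2+ the log2 fold change of Ogn was -1.55 (edgeR adjusted p = 0.0306) in place of -0.54. Fibromodulin (Fmod), which guides collagen fibril assembly, did not pass either, at 12.8 ± 0.495 against 14.8 ± 4.40 CPM. The small log2 fold change of 0.21 ± 0.23 (SE, edgeR adjusted p = 0.537) turned to -0.05 without the mouse 1 library labelled Axin2+. Aspn and Ogn lie close together on chromosome 13, at 49544443 to 49567565 and 49608046 to 49624501.

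Spock2, which encodes the calcium-binding testican 2, had the smallest p of all members. Its level was 350.2, 366 and 294 CPM in the libraries labelled Axin2- and 78.8, 66.4 and 82.6 CPM in those labelled Axin2+. The 3 libraries of each group were close together, and the fall was 4.43-fold (log2 fold change -2.15 ± 0.15 SE, edgeR adjusted p = 0.000263). Versican (Vcan), the large hyaluronan-binding proteoglycan of loose stroma, stood at 311, 327 and 233 CPM against 57.3, 76.0 and 208 CPM. The groups did not overlap, but the mouse 3 library labelled Axin2+ came near the other group, and Vcan missed the threshold at -1.35 ± 0.47 (SE) on the log2 scale (edgeR adjusted p = 0.0702). Without that library its log2 fold change was -2.12 (adjusted p = 0.00178), and DESeq2 called it with all libraries (-1.36, adjusted p = 0.00784).

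All 5 fibulins fell, with a median log2 fold change of -1.48. Fibulin 1 (Fbln1, chromosome 15, 85205949 to 85286535 on the plus strand), a calcium-dependent binding partner of fibronectin and basement membrane proteins, stood at 723, 738 and 863 CPM in the libraries labelled Axin2- and 194, 194 and 239.7 CPM in those labelled Axin2+. That was a 3.71-fold fall with a narrow spread (log2 fold change -1.89 ± 0.16 SE, edgeR adjusted p = 0.000432). Efemp2, a fibulin that elastic fibres and lysyl oxidase need for assembly, fell from 73.0 ± 6.71 to 26.2 ± 9.79 CPM. Its exons overlap those of Mus81 on the other strand by 173 bases.

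The other 3 fibulins fell less surely. Fbln2 stood at 183, 183 and 57.8 CPM against 43.6, 45.2 and 53.7 CPM, so that mouse 3 nearly closed the gap between the groups. Its log2 fold change of -1.57 ± 0.41 (SE, edgeR adjusted p = 0.0291) did not pass when any library other than the mouse 3 library labelled Axin2- was left out (adjusted p = 0.0538 to 0.0953), with the mouse as a block (0.0757) or with no filter on low counts (0.0501). Efemp1 stood at 224, 289 and 145 CPM against 121, 78.7 and 108 CPM and was 2.14-fold lower. It did not pass without the mouse 1 or 2 library labelled Axin2- or the mouse 2 or 3 library labelled Axin2+ (edgeR adjusted p = 0.0511 to 0.0842), nor with the block (0.0589). Fbln5, which tethers elastic fibres to integrins, had the smallest fall of the 30, from 22.9 ± 5.19 to 13.4 ± 2.03 CPM, or 1.71-fold. The call for Fbln5 was lost without any 1 library except the mouse 2 library labelled Axin2- (edgeR adjusted p = 0.0694 to 0.127), with the block (0.0888) and with library-size scaling (0.0809).

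Elastic fibre and microfibril genes fell in 6 of 7, with a median of -1.99. Fibrillin 1 (Fbn1), the main microfibril protein, stood at 1276, 224 and 450.4 CPM in the libraries labelled Axin2- and 102, 90.4 and 100.3 CPM in those labelled Axin2+. The second group was even and the first differed widely between mice. Its log2 fold change of -2.74 ± 0.59 (SE, edgeR adjusted p = 0.0153) was -1.76 without the mouse 1 library labelled Axin2-, and it did not pass without the mouse 2 library labelled Axin2+ (-2.68, adjusted p = 0.0608). Fibrillin 2 (Fbn2), the fibrillin known chiefly from developing tissue, stood at 95.3, 14.1 and 50.4 CPM against 3.74, 2.96 and 3.69 CPM. It was 15.4-fold lower, or -3.94 ± 0.65 (SE) on the log2 scale (edgeR adjusted p = 0.00563), and -3.18 without the mouse 1 library labelled Axin2-. Fbn1 shares 2442 exon bases with Gm9913 on the other strand, the longest overlap among the members.

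Elastin itself (Eln) did not pass. It stood at 112, 15.2 and 80.7 CPM against 26.6, 10.9 and 14.0 CPM, and the mouse 2 library labelled Axin2- lay within the range of the other group. Without that library its log2 fold change was -2.48 in place of -2.01 (edgeR adjusted p = 0.00969 in place of 0.0687). Eln was also called when mouse was blocked (-1.71, adjusted p = 0.0455) and in DESeq2 (-2.02, adjusted p = 0.0484). The microfibril-associated genes Mfap2 and Mfap5 fell from 30.6 ± 2.01 to 8.22 ± 3.82 CPM and from 30.1 ± 7.17 to 7.56 ± 2.76 CPM. Neither gene's groups overlapped, and both had their lowest level in the mouse 1 library labelled Axin2+. Mfap4, which binds elastin and collagen, stood at 142, 149.9 and 206 CPM against 23.3, 45.7 and 75.1 CPM, 3.46-fold lower. It did not pass without the mouse 3 library labelled Axin2- or the mouse 2 library labelled Axin2+ (edgeR adjusted p = 0.0619 and 0.0644). Emilin1, a glycoprotein at the interface of elastin and microfibrils, fell from 136 ± 35.2 to 37.1 ± 2.87 CPM (log2 fold change -1.87 ± 0.21 SE, edgeR adjusted p = 0.00111).

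The 4 latent TGF-beta binding proteins split. Ltbp1 fell from 145 ± 23.1 to 33.5 ± 6.91 CPM, which is -2.11 ± 0.20 in log2 terms (SE, edgeR adjusted p = 0.000611). Ltbp4 stood at 1308, 2574 and 1085 CPM in the libraries labelled Axin2- and 763, 424 and 587 CPM in those labelled Axin2+. The groups did not overlap and the fall was 2.80-fold (edgeR adjusted p = 0.0260), but Ltbp4 did not pass without the mouse 2 or 3 library labelled Axin2+ (0.0919 and 0.0627) or with the block (0.0674). Ltbp3, in contrast, stood at 242, 215 and 241 CPM against 247, 183 and 224 CPM, and the groups overlapped. The log2 fold change of Ltbp3, -0.10 ± 0.14 (SE, edgeR adjusted p = 0.658), became 0.07 with library-size scaling and 0.02 without the mouse 2 library labelled Axin2+. Ltbp2, a relative of the fibrillins that does not bind latent TGF-beta, stood at 42.6, 4.35 and 32.8 CPM against 29.7, 23.5 and 28.8 CPM. The mouse 2 library labelled Axin2- stood far below all others, and the log2 fold change of 0.04 ± 0.67 (SE, edgeR adjusted p = 0.971) was -0.46 without it, -0.02 without the mouse 1 library labelled Axin2+ and -0.01 with upper quartile scaling.

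Lysyl oxidases, which crosslink collagen and elastin, fell in 2 of 3. Lox stood at 54.3, 32.9 and 48.4 CPM against 9.66, 11.4 and 11.5 CPM, and fell 4.16-fold (log2 fold change -2.06 ± 0.22 SE, edgeR adjusted p = 0.000910). Loxl2 stood at 123, 18.6 and 42.8 CPM against 14.5, 11.7 and 8.34 CPM. The high value of mouse 1 weighed on its log2 fold change of -2.42 ± 0.65 (SE, edgeR adjusted p = 0.0319), which was -1.38 without that library. The Loxl2 call was lost without the mouse 1 or 3 library labelled Axin2- or the mouse 2 or 3 library labelled Axin2+ (edgeR adjusted p = 0.0595 to 0.0980), and with no filter on low counts (0.0584). Loxl1, the oxidase that elastic fibres need, stood at 216, 61.9 and 84.5 CPM against 84.9, 39.9 and 58.0 CPM and missed the threshold at -0.99 ± 0.49 (SE) on the log2 scale (edgeR adjusted p = 0.178). It was lower in each of the 3 mice and was called when mouse was blocked (-0.84, adjusted p = 0.0355). Without the mouse 1 library labelled Axin2- its log2 fold change was -0.23.

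Adhesive and matricellular genes fell in 7 of 9. Tenascin X (Tnxb, chromosome 17, 34670535 to 34719815), a large glycoprotein of loose connective tissue, stood at 2029, 1052 and 1316 CPM against 351, 332 and 413 CPM. It fell 4.01-fold (log2 fold change -2.01 ± 0.26 SE, edgeR adjusted p = 0.00219). Thrombospondin 1 (Thbs1), an activator of latent TGF-beta, fell from 723 ± 140.1 to 254 ± 51.5 CPM, and Fstl1, a secreted glycoprotein of mesenchymal cells, fell from 535 ± 198 to 130.1 ± 37.9 CPM. Dermatopontin (Dpt), which binds decorin, stood at 492, 531 and 227 CPM against 47.6, 113 and 125 CPM, 4.38-fold lower (edgeR adjusted p = 0.0136).

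Thrombospondin 2, periostin and SPARC fell with a wide spread. Thbs2 stood at 248, 65.5 and 69.3 CPM against 23.7, 12.9 and 7.31 CPM. For Thbs2 the log2 fold change of -3.12 ± 0.67 (SE, edgeR adjusted p = 0.0145) was -2.17 without the mouse 1 library labelled Axin2-, and it did not pass without the mouse 2 library labelled Axin2+ (adjusted p = 0.0588). Periostin (Postn), which binds collagen and tenascin, stood at 407, 31.0 and 107 CPM against 22.4, 31.4 and 11.8 CPM, and was the 1 gene of the 30 whose groups overlapped. In mouse 2 its levels were alike in both fractions, and its log2 fold change of -3.05 ± 0.89 (SE, edgeR adjusted p = 0.0422) was -1.62 without the mouse 1 library labelled Axin2-. Leaving out any library other than the mouse 2 library labelled Axin2- ended the call of Postn (edgeR adjusted p = 0.0744 to 0.111), as did the block (0.110) and no filter on low counts (0.0804). SPARC (Sparc), a calcium-binding protein that handles collagen, stood at 907, 210.0 and 636 CPM against 201, 129 and 169.8 CPM. It was 3.50-fold lower (edgeR adjusted p = 0.0328) but did not pass without the mouse 1 or 3 library labelled Axin2- or the mouse 2 or 3 library labelled Axin2+ (0.0734 to 0.111), or with no filter on low counts (0.0557). Tenascin C (Tnc), which is made in remodelling stroma, stood at 116, 50.9 and 18.5 CPM against 14.3, 26.8 and 39.4 CPM. The groups overlapped and mouse 3 ran against the other mice, and Tnc missed the threshold at -1.21 ± 0.65 (SE) on the log2 scale (edgeR adjusted p = 0.208; -0.35 without the mouse 1 library labelled Axin2-).

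Fibronectin (Fn1, chromosome 1, 71585520 to 71653200 on the minus strand), the adhesive glycoprotein that integrins assemble into fibrils, had the highest log2 fold change of the 39 but did not pass. It stood at 2233, 1652 and 2170.4 CPM in the libraries labelled Axin2- and at 5650.5, 4394 and 2098 CPM in those labelled Axin2+. In mice 1 and 2 the library labelled Axin2+ was above all those labelled Axin2-, and in mouse 3 it was not. On the log2 scale the difference was 1.0 ± 0.36 (SE), which missed the threshold (edgeR adjusted p = 0.0765). It passed without the mouse 3 library labelled Axin2+ (1.32, adjusted p = 0.0130), with library-size scaling (1.17, adjusted p = 0.0431) and in DESeq2 (adjusted p = 0.0161). The summed macrophage and the summed epithelial markers both had the order of Fn1 across the libraries labelled Axin2+. There mouse 3 stood at 0.371 of mouse 1 for Fn1, with a median of 0.184 for macrophage and 0.882 for epithelial markers. Of the epithelial markers Epcam (1.09), Foxa2 (1.26) and Cldn3 (1.35) were above 1 and the others below. The macrophage markers summed to 3510.4, 1956 and 624 CPM in mice 1, 2 and 3, with Csf1r at 596, 251 and 94.2 CPM, and the epithelial markers to 3408, 2864 and 2370 CPM. In the libraries labelled Axin2- the macrophage markers summed to 242, 58.5 and 337 CPM and the epithelial markers to 189, 292 and 280.2 CPM. The part of either cell type in the Fn1 level was not tested.

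Both nidogens fell, and both by less than the median of the group. Nid1, which joins laminin to type IV collagen, stood at 792, 697 and 664 CPM against 125, 233 and 414 CPM, 2.79-fold lower (edgeR adjusted p = 0.0319). The groups did not overlap. It did not pass without any 1 of the libraries labelled Axin2- or the mouse 2 library labelled Axin2+ (0.0673 to 0.107), or with library-size scaling (0.0502). Nid2 stood at 99.95, 180.1 and 206 CPM against 85.7, 66.4 and 94.0 CPM and was 1.98-fold lower (edgeR adjusted p = 0.0365). Its call was lost without any library other than the mouse 1 library labelled Axin2- (edgeR adjusted p = 0.0526 to 0.121), with the block (0.0569) and with library-size scaling (0.0542). Nid2 shares 437 exon bases with Rtraf on the other strand, whose reads cannot be told apart from its own with certainty.

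Within the libraries labelled Axin2- the matrix genes did not vary as 1 block. Mouse 1 was the highest of the 3 for 28 of 39 members (71.8%), against 30.6% of all genes tested. In 12 members mouse 1 stood more than 2-fold above the mean of mice 2 and 3 (30.8%, against 6.28% of all genes), from Ogn at 2.02-fold to Aspn at 5.66-fold and Postn at 5.93-fold. In 10 of these 12 mouse 2 also stood below 0.5 of the mean of mice 1 and 3 (25.6% of the 39, against 13.9% of all genes). The 10 were Ltbp2 at 0.115, Postn at 0.121, Eln at 0.158, Fbn2 at 0.193, Loxl2 at 0.224, Fbn1 at 0.260, Sparc at 0.272, Aspn at 0.307, Loxl1 at 0.412 and Thbs2 at 0.413. The 2 ratios are not independent, because a high value in mouse 1 also lowers the ratio of mouse 2. The share of all genes that meet both conditions was not counted. For Aspn, Thbs2 and Loxl1 the ratio of mouse 2 reflects mainly the high value of mouse 1. Mouse 2 was above mouse 3 for Aspn, level with it for Thbs2 and at 61.9 against 84.5 CPM for Loxl1.

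Mouse 2 was instead the highest for 8 members (20.5%, against 35.0% of all genes): Ltbp4 at 2.15 of the mean of mice 1 and 3, Dcn at 1.83, Efemp1 at 1.56, Fbln2 at 1.52, Dpt at 1.48, Lum at 1.35, Vcan at 1.20 and Spock2 at 1.14, although for Fbln2 mouse 1 was level with it. Among marker genes in that library 5 of 12 for fibroblasts stood below 0.5, which were Col1a1, Col1a2, Col3a1, Col6a3 and Clec3b. The fibroblast genes Pdgfra, at 1.08, and Hand2, at 1.71, did not. Of the muscle and pericyte markers 9 of 11 stood below 0.5, with Myh11 at 0.312 and Acta2 at 0.437, and of the macrophage markers 7 of 8. Endothelial markers had a median of 0.592, with 2 of 7 below 0.5, and mesothelial markers a median of 1.12, with 1 of 5 below. Epithelial markers had a median of 1.67, with 0 of 12 below. The part of these cell types was not tested, and 1 library per mouse gives the differences no replicate check.

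**Figure D3:**
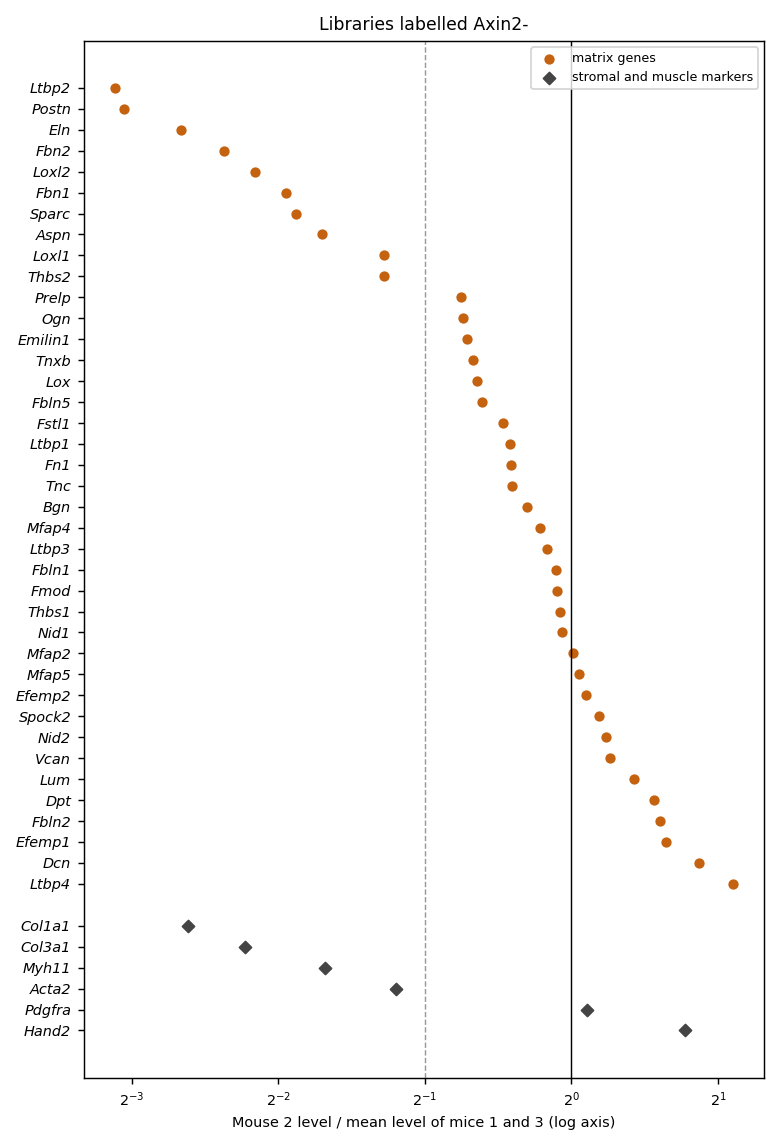
Level in the mouse 2 library labelled Axin2- divided by the mean of those of mice 1 and 3, on a log axis, for the 39 matrix genes in order of the ratio and, as diamonds, for 6 stromal and muscle markers. The dashed line marks 0.5 and the solid line 1. Left of the dashed line lie 10 matrix genes with Col1a1, Col3a1, Myh11 and Acta2, while Dcn and Ltbp4 lie at the right with Hand2. Epithelial markers, which are not drawn, had a median of 1.67.

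Within the libraries labelled Axin2+ mouse 3 was the highest for 20 of 39 members (51.3%, against 35.5% of all genes). In 7 members mouse 3 stood more than 2-fold above mouse 1 (17.9%, against 8.03% of all genes), led by Vcan at 3.62-fold, Nid1 at 3.32-fold and Mfap4 at 3.224-fold, with Mfap2, Tnc, Dpt and Mfap5 between 2.17 and 2.78-fold. The fibroblast markers differed among themselves in the same ratio. Pdgfra, Pdgfrb, Hand2 and Hoxa11 stood at 3.25 to 4.00-fold, and the collagen genes Col3a1, Col1a2, Col6a3 and Col1a1 at 1.03 to 1.499-fold. Vim stood at 0.457 and Clec3b at 0.0587 of mouse 1, and Dpep1 was at 0 in mouse 3. In 4 members mouse 3 stood below 0.5 of mouse 1, a share near that of all genes (10.3% against 12.1%): Aspn at 0.140, Ogn at 0.297, Thbs2 at 0.309 and Fn1 at 0.371. All 8 macrophage markers stood below 0.5, as did 2 of 12 epithelial ones. The part of these cell types was not tested.

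**Figure D4:**
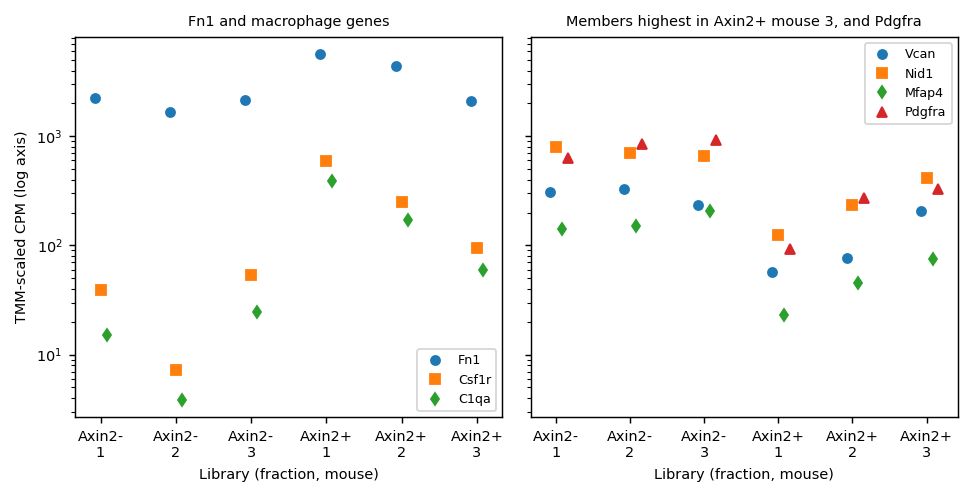
TMM-scaled CPM on a log axis in each of the 6 libraries, for Fn1 with the macrophage genes Csf1r and C1qa at the left and for Vcan, Nid1 and Mfap4 with the fibroblast gene Pdgfra at the right, as 1 point per library. In the libraries labelled Axin2+ Fn1 stands at 5650.5 CPM in mouse 1 and 2098 CPM in mouse 3, in the order of the macrophage genes, an order the summed epithelial markers (3408, 2864 and 2370 CPM) also have. Vcan is highest in mouse 3, at 208 CPM, as is Pdgfra, which not all fibroblast markers are.

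Levels were compared between genes as CPM per kilobase of exon, a length-scaled level. On that scale decorin led the libraries labelled Axin2- at 483 ± 191 CPM per kilobase (SD, n = 3), followed by Ltbp4 at 256 ± 124, Dpt at 242 ± 95.9, Fbln1 at 177 ± 17.6 and Lum at 176 ± 35.2. Ltbp4, Dpt, Fbln1 and Lum did not differ beyond their spread, and Fn1 came next at 173 ± 27.3, level with Fbln1 and Lum. In the libraries labelled Axin2+ Fn1 led at 346 ± 154 CPM per kilobase, followed by Dcn at 163 ± 16.1, Ltbp4 at 91.6 ± 26.2 and Dpt at 55.2 ± 24.1. In mouse 3 Dcn was level with Fn1, at 181.8 against 179.6 CPM per kilobase, while in mice 1 and 2 Fn1 stood above it. Decorin was read 48058 to 57017 times per library labelled Axin2+. At the lower end of the libraries labelled Axin2+ were Aspn at 0.204 ± 0.174 and Fbn2 at 0.262 ± 0.0329 CPM per kilobase, with 7 to 54 and 157 to 217 reads per library. Exon lengths came from GENCODE M21 and may differ from those of the annotation used for counting.

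Other matrix genes, from 6 lists that hold none of the 39, mostly fell where they passed. Of 146 tested 65 fell (44.5%, against 12.8% of all genes) and 17 rose (11.6%, against 14.5%), with a median log2 fold change of -0.77. Without the mouse 1 library labelled Axin2- the number that fell was 42, when 7.35% of all genes fell. Without the mouse 2 library labelled Axin2+ it was 43, when 6.04% fell, and 9 rose, when 8.55% rose. Of the other matrix glycoproteins 19 of 41 fell (46.3%, against 12.8% of all genes) and 4 rose (9.76%, against 14.5%). Without the mouse 2 library labelled Axin2+ 2 rose, when 8.55% of all genes rose. Smoc1, a calcium-binding relative of SPARC, fell from 36.6 ± 12.4 to 2.49 ± 1.20 CPM, and Abi3bp fell from 153 ± 30.1 to 48.3 ± 9.04 CPM. For Thbs3 and Ecm2, which fell, the log2 fold change was -2.06 and -1.43.

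Of the other proteoglycans 8 of 21 fell (38.1%, against 12.8% of all genes) and 3 rose (14.3%, near the 14.5% of all genes). The number that fell was 5 or 4 without the mouse 1 library labelled Axin2- or the mouse 2 library labelled Axin2+. In those fits 7.35% and 6.04% of all genes fell. Syndecan 4 (Sdc4), a heparan sulfate co-receptor, rose from 127 ± 11.4 to 442 ± 57.8 CPM (log2 fold change 1.80 ± 0.15 SE, edgeR adjusted p = 0.000424), and agrin (Agrn), a basement membrane proteoglycan, rose from 108 ± 21.0 to 204 ± 16.3 CPM. Hapln1, which locks versican to hyaluronan, fell from 16.0 ± 3.31 to 3.91 ± 1.86 CPM, and the TGF-beta co-receptor gene Tgfbr3 had a log2 fold change of -1.41 ± 0.20 (SE). Of the glycosaminoglycan synthesis genes 14 of 33 fell (42.4%, against 12.8% of all genes) and 2 rose (6.06%, against 14.5%). The chondroitin polymerizing genes Chpf, Chsy1 and Chsy3 fell, with log2 fold changes of -1.64, -1.16 and -2.86, as did Chst14, which sulfates dermatan, at -0.96. That count of 14 was 6 to 8 without the mouse 1 or 3 library labelled Axin2- or the mouse 2 library labelled Axin2+. In those fits 7.35%, 7.54% and 6.04% of all genes fell. With library-size scaling the count was 9, when 9.31% of all genes fell. The number that rose was 0 or 1 without the mouse 1 or 2 library labelled Axin2- or the mouse 1 or 2 library labelled Axin2+. Of all genes 10.6%, 12.1%, 11% and 8.55% rose in these fits.

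In the lists of enzymes, latent TGF-beta partners and receptors the shares that rose were 14.3%, 16.7% and 16.7%, near the 14.5% of all genes. Of the crosslinking and processing enzymes 11 of 21 fell (52.4%, against 12.8% of all genes) and 3 rose. Without the mouse 1 library labelled Axin2- or the mouse 2 library labelled Axin2+ 7 fell, when 7.35% and 6.04% of all genes fell. The number that rose was 1 without either of those libraries or the mouse 3 library labelled Axin2-, when 10.6%, 8.55% and 10.7% of all genes rose. Plod2, the collagen lysyl hydroxylase, fell from 72.8 ± 19.1 to 18.5 ± 3.42 CPM, and Loxl3, Htra3 and Lepre1 had log2 fold changes of -1.82, -2.00 and -1.23. The list of latent TGF-beta ligands and activators also holds the TGF-beta family genes Inhba, Inhbb, Mstn, Gdf10 and Gdf11. Of its genes 7 of 12 fell (58.3%, against 12.8% of all genes) and 2 rose. Only 1 rose with the block, with no filter on low counts and in 5 of the 6 fits that omit 1 library. In the fits that omit 1 library 8.55% to 13.2% of all genes rose. Itgb6, the integrin chain by which epithelia activate latent TGF-beta, rose from 1.63 ± 0.745 to 19.7 ± 4.12 CPM (edgeR adjusted p = 0.00104), whereas Tgfb2, Lrrc32 and Inhbb fell, by log2 fold changes of -1.46, -2.17 and -2.18. Among matrix receptors 6 of 18 fell (33.3%, against 12.8% of all genes) and 3 rose. The collagen receptor Ddr2 of fibroblasts fell from 509 ± 16.6 to 139.8 ± 43.97 CPM, while Ddr1, its epithelial counterpart, rose from 62.2 ± 8.46 to 140.0 ± 11.6 CPM. Itga11, a collagen-binding integrin chain, fell by 2.10 on the log2 scale and Itgb5, another integrin chain, rose by 0.78.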

How the data were processed

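The authors deposited 1 table of whole-number read counts, with 6 libraries as columns, 3 labelled Axin2- and 3 labelled Axin2+. Per the submitters' processing notes, mm10 was the build and STAR 2.5.3a, featureCounts 1.5.3, StringTie 1.3.3, edgeR 3.22.5 and bcl2fastq 2.20.0.422 were used. Which annotation and strand setting served for counting is not given in the sources used here. The authors' deposited comparison table holds log2 fold changes, log2 CPM, an F statistic (a score) and p-values with FDR, per the file headers. Its counts equal those used for all 39 members. It gives 30 of them an FDR under 0.05 with a negative log2 fold change, the same 30 that fell here.

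Counts were fitted with edgeR 4.0.16 in R 4.3.3, using filterByExpr, TMM scaling, the robust quasi-likelihood F test and Benjamini-Hochberg adjustment over 16896 genes at a threshold of 0.05. The SE follows from the fold change and F. Alternatives were DESeq2 1.42.0, other scalings and filters, removal of ribosomal RNA genes, the mouse as a block, and each library left out. Members and lists were chosen with earlier results of these data known. All members are named, with up to 4 genes of smallest p per other list. Labels give the pairing by mouse. As a check, each library's deviations from its fraction's mean were correlated across genes, which gave 0.27, 0.01 and -0.07 for the pairs of mice 1, 2 and 3. Pairs of different mice gave -0.24 to 0.25, so the check does not set the labelled pairs apart. Coordinates, exon lengths and overlaps come from GENCODE M21 (mm10). Without a stated strand setting, reads of overlapping genes cannot be told apart with certainty.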

Additional observations from a re-analysis of the deposited data

How the results depend on the processing

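The median log2 fold change of the 39 matrix genes stayed between -2.00 and -1.60 over 14 settings, and the number that fell between 17 and 32. Leaving out 1 library at a time gave 17 to 27 that fell and 0 to 1 that rose (6.04% to 11% of all genes fell and 8.55% to 13.2% rose in those fits), and for the other matrix genes 42 to 61 that fell (43 without the mouse 2 library labelled Axin2+) and 9 to 19 that rose. The 1 that rose was Fn1, with library-size scaling (where 19.3% of all genes rose), in DESeq2 (where 16.2% of all genes rose) and without the mouse 3 library labelled Axin2+. Library-size scaling moved the median of all genes from -0.01 to 0.16 and the number that fell from 2171 of 4618 called to 1573 of 4828. Directions turned for 3 genes that did not pass: Fmod to -0.046, Ltbp2 to -0.46, -0.019 and -0.0085, and Ltbp3 to 0.074 and 0.019, in the settings named above. With the replicate block by mouse 26 members fell and 0 rose. The block ended the calls of Fbln2, Fbln5, Efemp1, Ltbp4, Postn and Nid2 and added Eln and Loxl1. DESeq2 called 32 lower, the 30 and Vcan and Eln, when 15.6% of all genes fell. The causes were not tested. Depth limits Aspn, with 7 to 54 reads per library labelled Axin2+.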
